A study of Homo sapiens with 18 samples.

Results

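The protein arginine methyltransferase genes *PRMT1*, *PRMT2*, *PRMT3*, *CARM1* (also known as PRMT4), *PRMT5*, *PRMT6*, *PRMT7* and *PRMT9* and the genes of the PRMT5 partners *WDR77* and *CLNS1A* were chosen by symbol, 10 genes of the 60642 symbols counted in each library. All 10 were among the 15298 genes with enough counts to be tested. RNA was sequenced from MDA-MB-231 cells, a human triple-negative breast cancer line that lacks the estrogen and progesterone receptors and expresses the glucocorticoid receptor (GR). The cells were transfected with a non-specific siRNA (siNS) or an siRNA against HP1γ (siHP1γ; the gene is *CBX3*) or PRMT5 (siPRMT5), then given 100 nM dexamethasone (Dex), a synthetic glucocorticoid, or the same volume of its solvent ethanol (Eth) for 8 h. The 6 conditions had 3 replicates each, 18 libraries in all. All groups thus share the transfection, and no untransfected cells are among them.

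Protein arginine methyltransferases move methyl groups from S-adenosylmethionine onto arginines of histones, splicing factors and other proteins. The type I enzymes PRMT1, PRMT2, PRMT3, CARM1 and PRMT6 make asymmetric dimethylarginine, the type II enzymes PRMT5 and PRMT9 make the symmetric form, and PRMT7 makes monomethylarginine only. PRMT5 works in a complex with the WD-repeat protein WDR77 (MEP50), and CLNS1A (pICln) brings it the Sm proteins of the spliceosome, while PRMT5 has also been studied as a GR coregulator in these cells.

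Library totals were between 8682992 and 12472381 counts, at which 3 counts, taken as the limit of detection, correspond to 0.236 to 0.352 CPM (counts per 1000000 counts of the TMM-scaled library). These limits cover counting error only, and replicates differed by more than counting error (chi-square per degree of freedom of 2.01 to 11.3 between replicates). The study calls the replicates biological, without saying in the sources used here whether each was a culture and transfection of its own, and the p-values measure the spread between these samples. Most of the line's marker genes were as its label has it. *VIM* (5440 to 9590 CPM), *CD44*, *EGFR*, *AXL* and *NR3C1*, the GR gene (116 to 186 CPM), were present in every library, and *ESR1*, *PGR* and *CDH1* had at most 2 counts in any library. *EPCAM* (8.57 to 14 CPM) and *FOXA1* (3.27 to 10.3 CPM), which are on the list of genes to be near absent, were low but above the limit in every library. *CBX3* was at 274, 234 and 258 CPM in siNS Eth and at 220, 241 and 229 CPM in siNS Dex. In the depleted cells it was at 9.23, 9.91 and 10.5 CPM (siHP1γ Eth) and at 15.8, 14 and 11.4 CPM (siHP1γ Dex), log2 fold changes of -4.69 and -4.06 against siNS. After siPRMT5, *CBX3* was not called with Eth (-0.19, adjusted p = 0.0717) or with Dex (0.16, adjusted p = 0.12), but it passed with Eth in 5 of the 18 fits that leave out 1 library (lowest adjusted p = 0.0307) and with the compared libraries alone (adjusted p = 0.0431), and with Dex without siPRMT5 Dex replicate 3 (0.25, adjusted p = 0.0232).

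The 10 genes lie on 7 chromosomes (GENCODE 44 annotation of hg38, the build of the files). *PRMT5* is at chr14:22920525-22929408 on the minus strand with 17 exons in its canonical transcript, *WDR77* at chr1:111439890-111449256 (minus, 10 exons), *CLNS1A* at chr11:77514936-77637794 (minus, 7 exons) and *PRMT9* at chr4:147637785-147684163 (minus, 12 exons). The other 6 are on the plus strand: *PRMT1* at chr19:49675786-49689029, *CARM1* at chr19:10871553-10923075, *PRMT2* at chr21:46635595-46665124, *PRMT3* at chr11:20387558-20509338, *PRMT7* at chr16:68310951-68360852 and *PRMT6*, whose canonical transcript has 1 exon, at chr1:107056674-107067636. *WDR77* and *ATP5PB* lie on opposite strands and overlap, with starts 392 bases apart. *PRMT7* and *SLC7A6OS* face away from each other with starts 5 bases apart. The strand setting of the counting is not given in the sources used here, so reads of a member and of an overlapping gene on the other strand may not be told apart.

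The promoters of 4 members are shown, chosen among those called lower under both treatments, *PRMT3* and *CARM1* after siPRMT5 and *WDR77* and *CLNS1A* after siHP1γ. *PRMT5* was also lower in these comparisons and *PRMT6* was higher in both siHP1γ comparisons, and their windows are not printed. The sequences are from RefSeq (GRCh38.p14), from 250 bases before to 50 after the transcription start, 5′ to 3′ on the gene's strand. Capitals mark matches, on either strand, to the E-box CACGTG or the GC box GGGCGG. The windows are chr11:20387466-20387765 (*PRMT3*), chr19:10871303-10871602 (*CARM1*, the first of its 2 annotated starts), chr1:111449207-111449506 (*WDR77*) and chr11:77637745-77638044 (*CLNS1A*).
PRMT3: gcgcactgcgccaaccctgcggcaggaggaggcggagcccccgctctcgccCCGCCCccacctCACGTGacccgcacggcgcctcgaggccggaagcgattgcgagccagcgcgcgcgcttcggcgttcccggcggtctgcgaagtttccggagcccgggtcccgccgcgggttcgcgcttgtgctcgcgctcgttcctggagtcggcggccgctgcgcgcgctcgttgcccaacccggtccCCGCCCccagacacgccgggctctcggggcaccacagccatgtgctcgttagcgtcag
CARM1: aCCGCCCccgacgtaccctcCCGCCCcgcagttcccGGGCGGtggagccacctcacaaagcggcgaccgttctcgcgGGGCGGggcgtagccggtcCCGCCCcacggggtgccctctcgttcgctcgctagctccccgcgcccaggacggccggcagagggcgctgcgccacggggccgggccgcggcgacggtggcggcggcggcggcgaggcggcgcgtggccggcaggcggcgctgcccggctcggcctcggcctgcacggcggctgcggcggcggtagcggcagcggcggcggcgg
WDR77: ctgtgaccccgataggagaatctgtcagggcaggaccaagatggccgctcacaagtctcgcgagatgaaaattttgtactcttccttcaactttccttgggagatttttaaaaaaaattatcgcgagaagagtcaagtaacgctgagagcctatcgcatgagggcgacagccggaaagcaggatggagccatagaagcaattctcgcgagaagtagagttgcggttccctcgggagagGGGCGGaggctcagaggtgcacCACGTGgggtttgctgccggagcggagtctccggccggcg
CLNS1A: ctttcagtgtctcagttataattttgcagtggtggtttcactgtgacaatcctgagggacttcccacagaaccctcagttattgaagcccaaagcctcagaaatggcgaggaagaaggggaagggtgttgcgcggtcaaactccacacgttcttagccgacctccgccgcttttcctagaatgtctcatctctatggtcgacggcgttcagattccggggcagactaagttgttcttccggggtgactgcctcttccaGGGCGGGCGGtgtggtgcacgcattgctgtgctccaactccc

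The *CARM1* window had a GC content of 82.3% and 56 CpG pairs and the *PRMT3* window 75% and 48, against medians of 58.7% and 14 over all 35116 promoters of the table. The *WDR77* and *CLNS1A* windows were below that GC median, at 54.7% and 54%. *PRMT3* and *WDR77* were the only members of the 10 with an E-box, which 7.26% of all promoters hold. It begins 187 bases before the *PRMT3* start and 10 bases after that of *WDR77*. The GC box was in the windows of 8 members, against 45% of all promoters, and the CCAAT box in those of *PRMT1* and *PRMT5*, against 34.6%. The GR element, spelled GNACA and TGTNC with 3 bases between them, was in none of the 10 members' windows and in 0.39% of all promoters, and the ETS motif CCGGAAGT was in none and in 4.14%. The NRF1 motif, spelled GCGCA and GCGC with 1 base between them, was in the *PRMT2* window and in 5.78% of all promoters. A match is a description of these letters only.

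Per kb of its canonical transcript, *PRMT1* was the highest of the 10 in siNS Eth cells (210 ± 38.2 CPM per kb, SD, n = 3), followed by *PRMT5* (108 ± 8.67) and *CLNS1A* (71.7 ± 1.36). *CARM1* (30.4 ± 1.11), *PRMT6* (23.9 ± 1.31), *PRMT3* (23.4 ± 0.926), *PRMT2* (18.1 ± 0.408) and *WDR77* (14.4 ± 0.739) formed the middle, and *PRMT7* (7.35 ± 0.764) and *PRMT9* (3.63 ± 0.169) were lowest. *PRMT6* and *PRMT3* overlapped between libraries, while the other neighbours in this order did not. *PRMT5* was thus at 7.54 ± 0.943 times the level per kb of its partner *WDR77*. The library kit is not named in enough detail to say whether it reads whole transcripts, so the length scaling may not hold for every gene. *PRMT8*, the brain member of the family, had 1 count in all 18 libraries together.

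**Figure D1:**
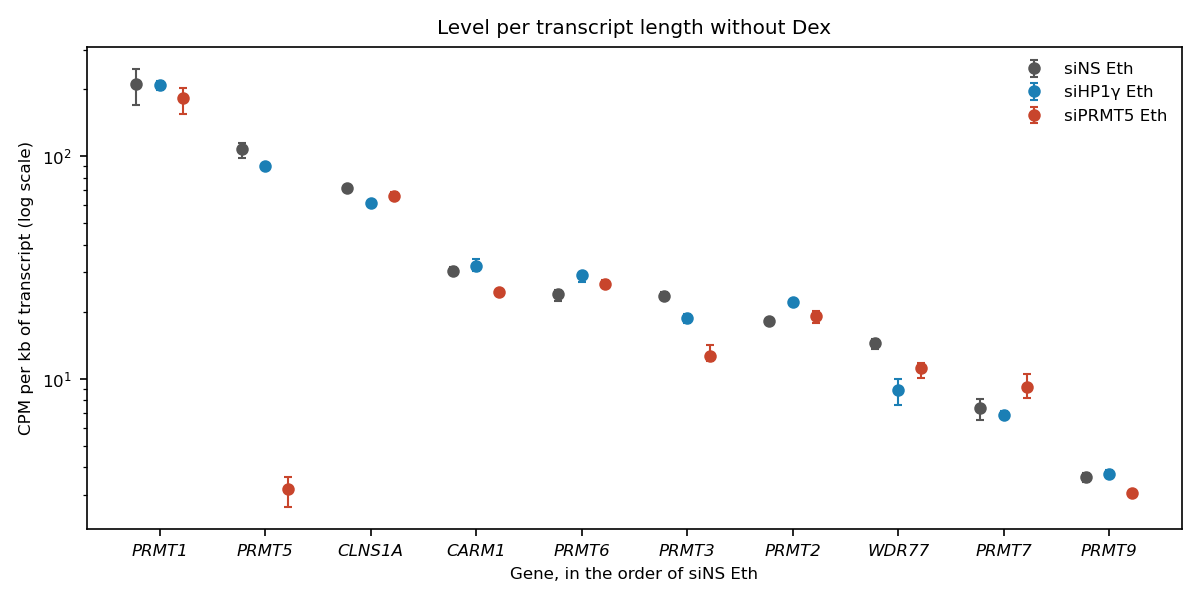
mRNA level per kb of canonical transcript (CPM per kb, log axis) of the 10 genes in the Eth libraries, ordered by siNS Eth. Points are means and bars the lowest and highest of 3 libraries. After siPRMT5, *PRMT5* (3.21) lies beside *PRMT9* (3.08), the lowest of the family.

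*PRMT5*, the siRNA target, was at 226, 262 and 259 CPM in siNS Eth and at 244, 247 and 226 CPM in siNS Dex. It was at 8.37, 7.75 and 6.1 CPM in siPRMT5 Eth and at 11.5, 10.6 and 9.39 CPM in siPRMT5 Dex, which is 2.97% and 4.39% of the matched siNS mean. The highest siPRMT5 library was far below the lowest of the other libraries (177 CPM). The log2 fold changes were -5.08 ± 0.104 (SE, adjusted p = 3.5e-22) with Eth and -4.50 ± 0.0974 (adjusted p = 1.38e-21) with Dex, where the adjusted p is that of edgeR's quasi-likelihood test with Benjamini-Hochberg adjustment over the 15298 genes, here and below. The processed pseudogene *PRMT5P1*, at 0 to 2.91 CPM, fell along with it (-3.08 and -4.01, adjusted p = 7.78e-06 and 1.42e-06). It had 2, 5 and 1 counts in siPRMT5 Eth and 0, 1 and 3 in siPRMT5 Dex, near the limit of 3 counts, so the size of this fall is uncertain. Reads of *PRMT5* and this copy can be exchanged by the mapping. *PRMT5-AS1*, which overlaps *PRMT5* on the other strand, had 0 to 3 counts. In siPRMT5 Eth cells the per-kb ratio of *PRMT5* to *WDR77* was 0.289 ± 0.0567, and in siPRMT5 Dex cells 0.315 ± 0.0236.

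The first question was whether other methyltransferase genes rise when *PRMT5* is depleted. Without Dex, 5 of the 10 members were called (adjusted p under 0.05), 1 higher and 4 lower, *PRMT5* among the lower ones, against 42.1% of all genes tested (20.6% higher and 21.6% lower). With Dex, 6 members were called, 1 higher and 5 lower, against 42.4% of all genes (20.6% higher and 21.9% lower). Called members were thus about as frequent as called genes overall. With the siRNA target left aside, 3 (Eth) and 4 (Dex) of 9 were lower, and 1 was higher under each treatment. On so few genes these counts say little about a direction, which was not tested. No member was higher in both, and *PRMT3*, *CARM1* and *PRMT5* were lower in both comparisons, which share no library, while 28.1% of all genes were called in the same direction in both. Without *PRMT5*, the median log2 fold change of the other 9 was -0.20 with Eth and -0.03 with Dex, against 0 over all genes in both.

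*PRMT3*, a cytosolic type I enzyme known for methylating the ribosomal protein RPS2, fell the most after the target itself. It was at 62.5, 58 and 59 CPM in siNS Eth and at 30.9, 30.5 and 35.9 CPM in siPRMT5 Eth. With Dex the values were 48.4, 53.7 and 50.2 CPM in siNS and 32.3, 38.3 and 37.3 CPM in siPRMT5. All 6 siPRMT5 libraries were below all 6 siNS libraries. The fall was to 54.2% of siNS with Eth (-0.88 ± 0.0881, adjusted p = 1.07e-08), a change larger than that of 90% of all genes. With Dex it was to 70.8% (-0.50 ± 0.0867, adjusted p = 4.81e-05), larger than that of 73.6%. The 2 log2 fold changes differed by 0.38 ± 0.124, which did not pass as a difference of the Dex response (adjusted p = 0.0782) but passed in 3 of the 18 fits that leave out 1 library.

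*CARM1*, which methylates histone H3 and is known as a coactivator of steroid receptors, fell in both as well. The siNS values were 96.7, 100 and 104 CPM with Eth and 119, 105 and 111 CPM with Dex. In siPRMT5 cells they were 80.2, 82.5 and 80.7 CPM with Eth and 85.6, 76 and 92.1 CPM with Dex. Again no siPRMT5 library reached the lowest siNS library. The changes were -0.31 ± 0.0782 (adjusted p = 0.00239) and -0.41 ± 0.0771 (adjusted p = 0.000122), 80.8% and 75.6% of siNS. In absolute size they were larger than those of 53.6% and 65.5% of all genes.

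*PRMT6*, a nuclear type I enzyme that acts on histone H3, was the one member that rose after siPRMT5 with Dex. It was at 57.2, 56.9 and 54.1 CPM in siNS Dex and at 81.7, 79.4 and 77.1 CPM in siPRMT5 Dex, with no overlap (0.50 ± 0.0717, adjusted p = 3.2e-06, 142% of siNS). With Eth it was at 58.7, 65.2 and 63.9 CPM in siNS and at 68.2, 67.6 and 72.9 CPM in siPRMT5, groups that also lie apart, but the change of 0.15 ± 0.0724 did not pass (adjusted p = 0.0963). The difference of its Dex response between siPRMT5 and siNS cells was 0.35 ± 0.102 (adjusted p = 0.0525). It passed with DESeq2 (0.36, adjusted p = 0.0316), in edgeR with DESeq2 size factors (adjusted p = 0.0497) or with at least 10 counts in every library (adjusted p = 0.0425), and in 6 of the 18 fits that leave out 1 library, so its call turns on the scaling, the filter and single libraries.

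*PRMT1*, the main type I enzyme of most cells, fell with Dex (-0.47 ± 0.132, adjusted p = 0.00516), from 280, 327 and 304 CPM to 225, 183 and 249 CPM, and had -0.20 with Eth (adjusted p = 0.24). Leaving out 1 library moved the value with Eth between -0.34 and -0.07, and it passed without siNS Eth replicate 1 (adjusted p = 0.0489). Its replicates were spread widely, with 226, 327 and 285 CPM in siNS Eth. The processed pseudogene *PRMT1P1* held 10.7% to 14.2% as many counts as *PRMT1* and had 26.6, 43.7 and 34.8 CPM in those 3 libraries, in the same order. Reads of the gene and its copy can be exchanged by the mapping. With the counts of *PRMT1*, *PRMT5* and *CLNS1A* added to those of their copies, every call of the 10 members stayed the same.

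*PRMT2*, a type I enzyme known as a nuclear receptor coactivator, was called after siPRMT5 with Dex only (-0.27 ± 0.0826, adjusted p = 0.00919), from 48.3, 52.2 and 42.4 CPM to 39.7, 37.3 and 41.2 CPM. The call was lost without siNS Dex replicate 2 (adjusted p = 0.075) or siPRMT5 Dex replicate 2 (adjusted p = 0.0598). With Eth its change was 0.07, and the difference of the Dex response was -0.35 ± 0.118 (adjusted p = 0.0962). *PRMT7* was called higher with Eth (0.32 ± 0.11, adjusted p = 0.0215), from 24.5, 27.7 and 30.2 CPM to 33.6, 39.1 and 30.6 CPM, groups that are separated by less than 1 CPM. The call was lost without siNS Eth replicate 1 (0.24, adjusted p = 0.125) or siPRMT5 Eth replicate 2 (0.22, adjusted p = 0.153), and with Dex its change was 0.00 (95% interval -0.22 to 0.22). Its head-to-head neighbour *SLC7A6OS* was also higher with Eth (0.23, adjusted p = 0.02). *PRMT9*, which methylates the splicing factor SF3B2, stayed between 10.4 and 13.6 CPM in all 18 libraries, and its changes after siPRMT5 were -0.24 (adjusted p = 0.0842) and 0.05 (adjusted p = 0.749).

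Of the PRMT5 partners, *WDR77* fell after siPRMT5 with Eth, while its change with Dex did not pass the test. It was at 37, 33.4 and 35.6 CPM in siNS Eth and at 28.9, 24.8 and 28.9 CPM in siPRMT5 Eth (-0.36 ± 0.0988, adjusted p = 0.00472, 77.8% of siNS). In siNS Dex it was at 39.8, 32.7 and 35.5 CPM and in siPRMT5 Dex at 36.8, 34.9 and 34.7 CPM, groups that overlap (-0.03, 95% interval -0.22 to 0.17). The difference between the 2 changes did not pass the test either (0.33 ± 0.137, adjusted p = 0.177). *CLNS1A* had -0.12 (adjusted p = 0.134) with Eth and -0.01 (adjusted p = 0.876) with Dex, and its 95% intervals, -0.24 to 0.01 and -0.14 to 0.11, leave room for a fall of at most 0.24 on the log2 scale.

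**Figure D2:**
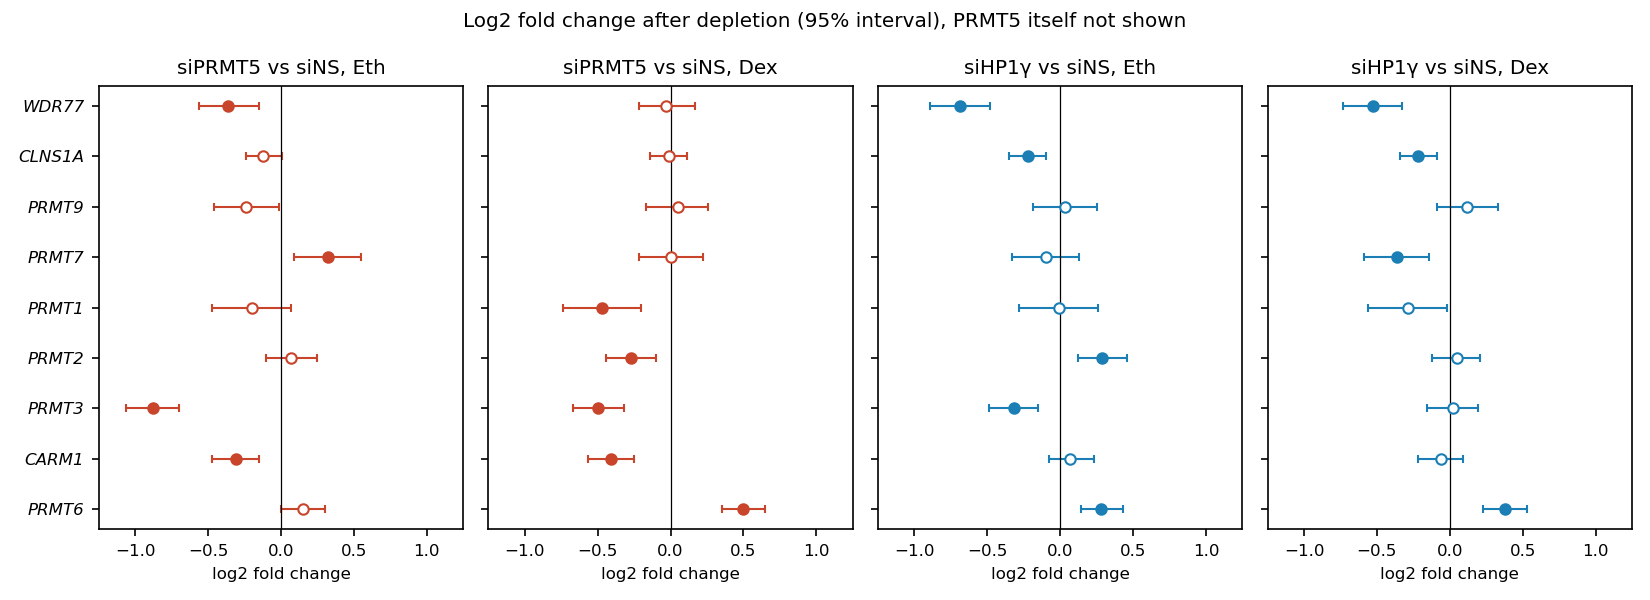
Log2 fold changes of the 9 genes other than *PRMT5* after siPRMT5 (left pair of panels) and siHP1γ (right pair) against siNS, each with Eth and with Dex. Points are estimates from edgeR, bars 95% intervals, and filled points passed an adjusted p of 0.05. *PRMT3* (-0.88 and -0.50) and *CARM1* are left of 0 in both siPRMT5 panels, and *WDR77* (-0.69 and -0.53) in both siHP1γ panels.

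Depletion of HP1γ, a chromatin protein that binds methylated histone H3 lysine 9, was compared with siNS in the same way. With Eth, 6 members were called, 2 higher and 4 lower, against 31.8% of all genes (16.5% higher and 15.2% lower). With Dex, 5 members were called, 1 higher and 4 lower, against 24% of all genes (11.7% higher and 12.3% lower). *PRMT6* was higher in both, and *PRMT5*, *WDR77* and *CLNS1A*, the enzyme and both its partners, were lower in both, 4 of 10 members against 15% of all genes called in the same direction in both. These 2 comparisons share no library, but each shares its siNS libraries with the siPRMT5 comparison of the same treatment.

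*WDR77* had the largest change of the 10 after siHP1γ. From 37, 33.4 and 35.6 CPM in siNS Eth it fell to 18.8, 22.4 and 24.5 CPM (-0.69 ± 0.1, adjusted p = 9.19e-06, 61.9% of siNS), a change larger than that of 90.6% of all genes. With Dex it was at 24.6, 24.5 and 25.9 CPM (-0.53 ± 0.0969, adjusted p = 0.000222, 69.5% of siNS). All 6 siHP1γ libraries were below all 6 siNS libraries. *ATP5PB*, which overlaps its start and was about an order of magnitude higher (375 to 461 CPM), had -0.20 (adjusted p = 0.00811) with Eth and -0.02 (adjusted p = 0.856) with Dex.

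*CLNS1A* was at 218, 210 and 213 CPM in siNS Eth and at 178, 187 and 184 CPM in siHP1γ Eth (-0.22 ± 0.0612, adjusted p = 0.00685). With Dex it was at 216, 221 and 209 CPM in siNS and at 183, 182 and 191 CPM in siHP1γ (-0.22 ± 0.061, adjusted p = 0.0103), so the siHP1γ libraries lay below the siNS libraries in each pair. The call with Dex was lost when libraries were scaled by their size alone (-0.14, adjusted p = 0.121). *PRMT5* was at 211, 206 and 209 CPM in siHP1γ Eth and at 177, 199 and 189 CPM in siHP1γ Dex, each below the siNS libraries of its treatment. The changes were -0.25 ± 0.0748 (adjusted p = 0.0111) and -0.35 ± 0.0748 (adjusted p = 0.00123), 83.9% and 78.7% of siNS. The first was lost without siNS Eth replicate 2 (-0.22, adjusted p = 0.0501). In absolute size, the changes of *PRMT5* were larger than those of 54.3% (Eth) and 73.2% (Dex) of all genes. For *CLNS1A* these shares were 49.1% and 54.5%. The per-kb ratio of *PRMT5* to *WDR77* was 9.09 to 12 in siHP1γ Eth against 6.51 to 8.36 in siNS Eth, without overlap, for which the exact two-sided permutation test of 3 against 3 cannot go below 0.1. With Dex the ratios overlapped, at 7.67 to 8.66 in siHP1γ and 6.54 to 8.05 in siNS cells.

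*PRMT6* was at 71.4, 78.3 and 79.2 CPM in siHP1γ Eth and at 76.7, 69.7 and 72.4 CPM in siHP1γ Dex, above all siNS libraries in both. It rose by 0.28 ± 0.0717 (adjusted p = 0.00344) and 0.38 ± 0.0717 (adjusted p = 3e-04). *PRMT2* was called higher with Eth (0.29 ± 0.0821, adjusted p = 0.00842; 52.2, 51.5 and 52.7 CPM against 41.6, 42.8 and 43.5 CPM) and had 0.05 with Dex. *PRMT3* was called lower with Eth (-0.32 ± 0.0844, adjusted p = 0.00509; 45.4, 48.5 and 49.8 CPM) and had 0.02 with Dex. Neither passed as a difference of the Dex response (-0.24, adjusted p = 0.276, and 0.34, adjusted p = 0.156). *PRMT7* was called lower with Dex (-0.36 ± 0.109, adjusted p = 0.016), from 33.1, 33.3 and 31 CPM to 20.8, 26.4 and 28.9 CPM. That call was lost without siHP1γ Dex replicate 1 (-0.23, adjusted p = 0.133), the lowest of the 18 libraries, without siNS Dex replicate 1 (adjusted p = 0.0552), and with library size scaling alone (adjusted p = 0.0542). *CARM1*, *PRMT9* and *PRMT1* were not called after siHP1γ, with *PRMT1* at -0.29 (adjusted p = 0.112) with Dex. That value for *PRMT1* was between -0.41 and -0.13 when 1 library was left out, and it passed without siHP1γ Dex replicate 3 (adjusted p = 0.0299) and without a filter on low counts (adjusted p = 0.00199).

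The 2 depletions were also compared with each other. Against siHP1γ, siPRMT5 cells had 7 members called with Eth, 2 higher and 5 lower, against 48.4% of all genes (23.4% higher and 25% lower). With Dex, 7 were called, 3 higher and 4 lower, against 49.9% (24.4% higher and 25.5% lower). *PRMT5*, the target of 1 of the 2 siRNAs, is counted under each treatment. Of the other 9 members, 6 were called with Eth and 6 with Dex. *PRMT2*, *PRMT3*, *CARM1* and *PRMT5* were lower and *PRMT7* and *WDR77* higher in siPRMT5 than in siHP1γ cells under both treatments. These are 6 of 10 members, the siRNA target *PRMT5* included, against 37.5% of all genes called in the same direction in both. *PRMT3* differed by -0.56 and -0.51 (adjusted p = 1.04e-05 and 2.18e-05), *CARM1* by -0.38 and -0.34 (adjusted p = 0.00023 and 0.000606), and *WDR77* by 0.33 and 0.50 (adjusted p = 0.0102 and 0.000121). *PRMT6*, which rose after both depletions with Dex, differed between them by 0.12 (95% interval -0.02 to 0.27, adjusted p = 0.154). *PRMT9* was called with Eth only (-0.27, adjusted p = 0.043), a call lost in 11 of the 18 fits that leave out 1 library. The call of *PRMT2* with Eth (-0.22) was lost in 6 of these fits, with adjusted p of up to 0.167, and without a filter on low counts (adjusted p = 0.109). Without siHP1γ Eth replicate 1, 4 members were called with Eth, as *PRMT2*, *PRMT9* and *WDR77* (0.24, adjusted p = 0.0769) were lost, and *PRMT7* was lost with Dex without siHP1γ Dex replicate 1 (adjusted p = 0.0707).

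The response to Dex itself was compared in each kind of cell. In siNS cells, no member passed an adjusted p of 0.01 with a fold change of at least 1.5, against 2.71% of all genes. None passed an adjusted p of 0.05 either, with edgeR, against 9.16% of all genes. An unadjusted p under 0.05 was found for 3 members and for 3420 of the 15298 genes. *PRMT3* was the nearest (-0.24 ± 0.084, adjusted p = 0.0783), and it passed 0.05 with DESeq2 (adjusted p = 0.0479). The changes of the 10 were between -0.24 and 0.24, their median of absolute values 0.14, equal to that of all genes. In siHP1γ cells no member was called, against 1.67% of all genes, and none had an unadjusted p under 0.05, against 2753 of the 15298 genes. In siPRMT5 cells no member was called, against 5.44%, and 5 had an unadjusted p under 0.05, against 4078 of the 15298 genes. DESeq2 also called 0 members at these thresholds in each of the 3 comparisons.

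Without the limit on the fold change, 2 members passed an adjusted p under 0.05 with Dex in siPRMT5 cells, against 16% of all genes. Both rose, as did 1151 of the 15298 genes at that threshold. *PRMT5* had 0.52 ± 0.131 (adjusted p = 0.00634), its remaining transcript being at 142% of that with Eth, and *WDR77* had 0.36 ± 0.0981 (adjusted p = 0.01). The siPRMT5 Dex libraries lay above the siPRMT5 Eth libraries for both. Without siPRMT5 Eth replicate 3, *PRMT5* had 0.39 and did not pass (adjusted p = 0.0641). The Dex response of *PRMT5* was 0.57 ± 0.151 higher in siPRMT5 than in siNS cells (adjusted p = 0.0297), the 1 member called among the 10, against 3.8% of all genes, and that call was lost in 6 of the 18 fits that leave out 1 library. By edgeR, 6 members had an unadjusted p under 0.05 for this difference, 5 of 9 without *PRMT5*, against 2912 of the 15298 genes. *CBX3*, the other siRNA target, had a mean of 13.7 CPM with Dex and 9.89 CPM with Eth in siHP1γ cells. This change of 0.48 was not called at the thresholds for Dex responses, and neither was the 0.52 of *PRMT5* in siPRMT5 cells. Under other processing, by edgeR or DESeq2, the adjusted p of *CBX3* was 0.0054 to 0.0783. The change of *CBX3* was called without siHP1γ Dex replicate 3 (0.60, adjusted p = 0.00537). That of *PRMT5* was called without siPRMT5 Dex replicate 3 (0.59, adjusted p = 0.00478) or siPRMT5 Eth replicate 1 (0.62, adjusted p = 0.00476). In siNS cells *CBX3* had -0.15 with Dex. For siHP1γ, no member's Dex response was called different from that in siNS cells, against 0.399% of all genes, and DESeq2 called 0. By edgeR, 2 members had an unadjusted p under 0.05, against 2636 of the 15298 genes.

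The wider arginine methylation pathway was followed through 22 genes. They were adaptors and substrates of PRMT5, proteins that read methylarginine, genes that supply the methyl donor or modulate the enzymes, and *PRMT8*. Of these, 18 were tested. After siPRMT5, 12 were called with Eth (8 higher and 4 lower) and 9 with Dex (6 higher and 3 lower), against 42.1% and 42.4% of all genes, and 7 were called in the same direction in both, against 28.1% of all genes. The median log2 fold changes of the 18 were 0.17 and 0.09, against 0 over all genes. After siHP1γ, 6 of the 18 were called with Eth (2 higher and 4 lower) and 5 with Dex (2 higher and 3 lower), near the 31.8% and 24% of all genes.

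*RIOK1*, the adaptor that competes with CLNS1A for PRMT5, rose after siPRMT5 with Dex, from 50.3, 52.7 and 58.5 CPM to 81.3, 73.3 and 83.7 CPM (0.56, adjusted p = 1.2e-06). With Eth its values were 59.7, 54.3 and 55.6 CPM in siNS and 64.5, 62.1 and 62.3 CPM in siPRMT5 (0.16, adjusted p = 0.105). The groups do not overlap under either treatment, and the Dex response differed by 0.40 ± 0.107 (adjusted p = 0.0305). *COPRS*, which guides PRMT5 to histones, had 0.22 with Eth (adjusted p = 0.0401) and -0.02 with Dex (adjusted p = 0.869). Its call was lost in 10 of the 18 fits that leave out 1 library, so it is not firm.

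The 4 genes that rose in both siPRMT5 comparisons were *COIL*, *MAT2B*, *TDRD3* and *BTG1*. *COIL*, the Cajal body scaffold whose arginines are symmetrically dimethylated, went from 36.1, 31.3 and 36.7 CPM to 54.7, 50.4 and 52.9 CPM with Eth (0.60, adjusted p = 2.52e-05) and had 0.62 with Dex (adjusted p = 1.43e-05). *MAT2B*, the regulatory subunit of the enzyme that makes S-adenosylmethionine, went from 119, 119 and 115 CPM to 170, 170 and 172 CPM with Eth (0.54, adjusted p = 4.16e-07) and had 0.59 with Dex (adjusted p = 1.01e-07). Both were above every siNS library in all 6 siPRMT5 libraries. The Tudor-domain reader *TDRD3* had 0.41 and 0.68 (adjusted p = 0.00132 and 2.44e-06), and *BTG1*, a known partner of PRMT1, 0.34 and 0.49 (adjusted p = 0.000475 and 8.69e-06). *BTG1* was also the only one of the 18 called with Dex in siNS cells (-0.64, adjusted p = 5.63e-07).

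The 3 genes that fell in both were *SND1*, *AHCY* and *LSM4*. *SND1*, another Tudor-domain reader, went from 186, 221 and 210 CPM to 153, 165 and 148 CPM with Eth (-0.40, adjusted p = 0.000101) and had -0.58 with Dex (adjusted p = 7.5e-07). *AHCY*, which clears S-adenosylhomocysteine, the product that inhibits methyltransferases, had -0.34 and -0.35 (adjusted p = 0.00394 and 0.00267), the first lost without siNS Eth replicate 2 (-0.24, adjusted p = 0.0505). *LSM4*, a PRMT5 substrate, had -0.35 and -0.24 (adjusted p = 0.000381 and 0.00811). Readers, donor genes and substrates were thus found on both sides.

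**Figure D3:**
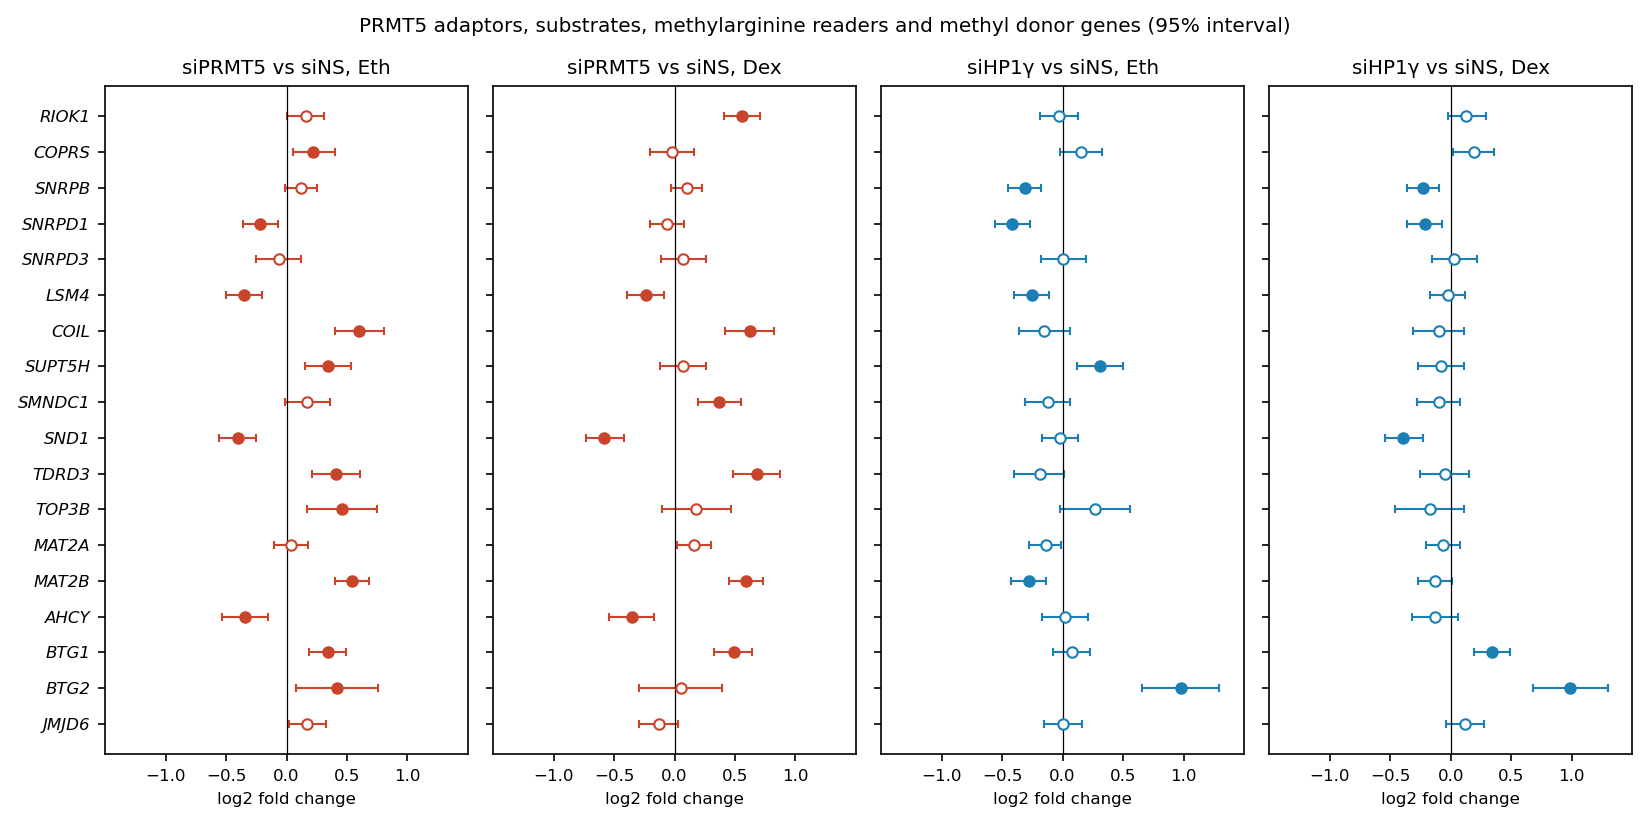
Log2 fold changes of the 18 pathway genes that were tested after siPRMT5 (left pair of panels) and siHP1γ (right pair) against siNS, each with Eth and with Dex. Points are estimates from edgeR, bars 95% intervals, and filled points passed an adjusted p of 0.05. *COIL*, *MAT2B*, *TDRD3* and *BTG1* are right of 0, and *SND1*, *AHCY* and *LSM4* left of 0, in both siPRMT5 panels.

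*MTAP*, the enzyme that removes methylthioadenosine, an inhibitor of PRMT5, had 0 counts in all 18 libraries, below the limit of 0.236 to 0.352 CPM that 3 counts set in single libraries. *SMN1* and *SMN2*, near-identical copies of each other, had 1 and 0 counts in all libraries together. Reads that match both copies can be dropped by the counting, so these values say nothing firm about their level. CPM values are shares of a library, and a lower value cannot tell fewer cells with a transcript from less transcript per cell.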

How the data were processed

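Total RNA of 18 MDA-MB-231 libraries was sequenced, and conditions and replicate numbers were taken from the sample titles. The authors prepared the libraries with Lexogen kits, mapped the reads on hg38 with Bowtie2 2.4.2 and counted them per gene symbol with htseq-count 0.9.1. The authors deposited raw counts, as whole numbers without normalization, and these were used here. A deposited table of the authors' own DESeq2 2.11.40.7 comparisons (fold changes and adjusted p-values) was not used. The read length, annotation and strand setting are not given in the sources used here. Bowtie2 makes no spliced alignments, and junction reads may be missing from the counts.

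Genes were kept by filterByExpr (15298 of 60642), scaled by TMM (factors 0.969 to 1.04) and fitted with all 18 libraries and a mean for each condition, leaving 12 residual degrees of freedom (edgeR 4.0.16, R 4.3.3). Comparisons were tested by quasi-likelihood F tests with Benjamini-Hochberg adjustment, after a check on simulated data. Depletions and differences of the Dex response were called at an adjusted p under 0.05, and Dex responses at 0.01 and a fold change of at least 1.5. Levels are TMM-scaled CPM. Alternatives were other scalings, DESeq2 1.42.0, other filters, a replicate block, the compared libraries alone, leaving out each library and, chosen after seeing the data, adding processed pseudogene counts to 3 members. Loci are from GENCODE 44 and promoters from RefSeq (GRCh38.p14), in which all 10 members matched. The members and pathway lists were chosen with earlier results of these data known. All members were named, and of the lists the genes called in both siPRMT5 comparisons in 1 direction, with *RIOK1*, *COPRS*, *MTAP* and *PRMT8* whatever their values. Other genes were named for a locus or limit they share with these.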

Additional observations from a re-analysis of the deposited data

Results flagged for a closer look

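The Dex response differed between siPRMT5 and siNS cells by the test of the difference for 1 member and 1 adaptor. For *PRMT5* the difference was 0.57 on the log2 scale (adjusted p = 0.0297, edgeR), on a remaining level of 6.1 to 11.5 CPM. It was lost in 6 of the 18 fits that leave out 1 library, with adjusted p of 0.0543 to 0.102 there. The remaining transcript of the other siRNA target, *CBX3*, had a plain Dex response of 0.48 in siHP1γ cells, against 0.52 for *PRMT5* in siPRMT5 cells. Neither was called as a Dex response. Against siNS, *CBX3* had -4.69 with Eth and -4.06 with Dex after siHP1γ, and *PRMT5* had -5.08 and -4.50 after siPRMT5. The test of the difference is not given for *CBX3*. For *RIOK1* the difference was 0.40 (adjusted p = 0.0305), lost in 7 of the 18 such fits and without a filter on low counts (adjusted p = 0.0978). The cause of neither difference was tested.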

How the results depend on the processing

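Of 110 values (10 members in 11 comparisons), none that was called in any fit changed sign, under 8 alternatives or 18 fits without 1 library. Calls were lost 7 times and gained 4 times under the alternatives, and lost 32 and gained 14 times without a library. Of 133 values of the pathway genes and *CBX3*, none that was called in any fit changed sign either. Here 10 calls were lost and 7 gained under the alternatives, and 36 lost and 16 gained without a library. Members with a different Dex response in siPRMT5 cells numbered 2, not 1, with DESeq2 size factors in edgeR, with DESeq2 and with at least 10 counts in every library (13007 genes), since *PRMT6* was added, and 0 to 3 without 1 library. After siHP1γ with Dex, 3 members instead of 5 were called with library size scaling alone, which moved the median of all genes by 0.09. Genes with a different Dex response in siHP1γ cells numbered 61, but 147 with DESeq2, 374 without a filter, 94 with a replicate block and 20 to 186 without 1 library; in siPRMT5 cells, 582 became 319 to 897. At an adjusted p under 0.05 with no fold limit, the Dex responses held 1402 genes in siNS (414 with the limit), 849 in siHP1γ (255) and 2449 in siPRMT5 cells (832), and 2 members in siPRMT5 cells instead of 0. Without 1 library, 0 to 1 member responded to Dex in siPRMT5 cells and 4 to 7 differed between the depletions with Eth. Where not stated, the cause was not tested. Replicate numbers were not taken to pair the samples, since most same-numbered pairs of libraries did not correlate above 0.1. Of these, 12 of 45 did (-0.275 to 0.422), against 14 of 90 pairs with different numbers (-0.431 to 0.428). As a hint of some sharing, 11 of 18 libraries correlated best with one of their own number, where 6 would if the numbers carried nothing. The replicate block changed no call of a member, with 5 and 6 members called after siPRMT5 as before. The 3 libraries per condition and 8682992 to 12472381 counts limit what small changes of *PRMT9* (93 to 170 counts) and *PRMT7* can show.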

Other observations

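*CDKN2A* and *CDKN2B*, which neighbour *MTAP* and were looked up after its values were seen, also had 0 counts in all 18 libraries. *BTG2*, a relative of *BTG1* outside the rule for named genes, was higher after siHP1γ, at 12.4, 12.9 and 12.8 CPM with Eth against 6.51, 6.93 and 5.9 CPM in siNS (0.98, adjusted p = 2.58e-05) and 0.99 with Dex (adjusted p = 2.22e-05, edgeR). *AQP11*, which overlaps *CLNS1A* on the other strand, rose after siPRMT5 by 1.01 with Eth (adjusted p = 0.00179) and 0.97 with Dex (adjusted p = 0.00194), at 1.66 to 6.2 CPM over all libraries. In siNS Eth replicate 1 and siHP1γ Dex replicate 1, *PRMT1* (226 and 193 CPM), *PRMT7* (24.5 and 20.8 CPM), *SUPT5H* (116 and 121 CPM) and *AHCY* (268 and 238 CPM) were each the lowest of their condition, a pattern chosen after the values were seen. In siPRMT5 Eth replicate 3 and siPRMT5 Dex replicate 2, *PRMT1* (205 and 183 CPM), *SUPT5H* (164 and 143 CPM) and *AHCY* (212 and 220 CPM) were also the lowest of their condition. *PRMT7* was so in the first only (30.6 CPM). Over all genes tested, deviations from the condition mean correlated between these libraries at 0.242 to 0.428, across replicate numbers. The cause was not tested.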
